A study of Mus musculus with 12 samples.

Results

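Krüppel-like factors (KLFs) are zinc finger transcription factors, and 9 of their genes, Klf2, Klf3, Klf4, Klf5, Klf6, Klf7, Klf9, Klf10 and Klf13, are described here out of 54232 genes counted by RNA sequencing of B16F10 cells, a mouse melanoma line of C57BL/6 origin. They were chosen by name, with earlier results of these data known, and each symbol matched 1 row of counts by its Ensembl identifier. The 12 libraries form 4 groups of 3, and all are labelled with the strain C57BL/6 and an age of 6 weeks. WT cells were cultured in DMEM and left untreated. The relapsed lines (ITF1, ITM and Rel) were injected under the skin of mice, treated with immunotherapy, sorted from the tumor that grew back, and then cultured to confluency before RNA was taken. Tumor libraries (1, 3 and 4) came from cells sorted out of such tumors by flow cytometry, with RNA taken at once, so they had no culture step after the mouse. Lyso cells were incubated with granules secreted by T cells, for 48 hours by the labels and for a shorter time by the study's methods, which also place them on low-adherence plates. For WT, the plate is not given in the sources used here, so granules and plate cannot be told apart. The immunotherapy given to each mouse, and whether each line is a clone, are not given in those sources either.

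KLFs bind GC-rich DNA and the related CACCC box through zinc fingers at their C-terminal end, and they differ in the cofactors that the rest of the protein recruits. Klf2, Klf4, Klf5, Klf6 and Klf7 are known mainly as activators that work with histone acetyltransferases. Klf9, Klf10 and Klf13 bind the SIN3 corepressor, and Klf3 binds the corepressor CtBP. Several KLFs are quickly induced by serum, shear stress, cytokines or hormones, and their messages are short-lived. In skin, Klf4 is best known from the differentiating epidermis, and Klf2 and Klf4 from the vessel wall.

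Klf4 and Klf2 were far higher in the Tumor libraries than in any cultured group. Klf6, Klf9 and Klf10 were 2.41- to 3.02-fold higher in Tumor than in WT, and no KLF was lower. Fibroblast markers summed to 7889 to 10869 CPM in Tumor and 113.0 to 164.7 in WT. The part of admixed cells in the KLF differences was not tested. Incubation with granules changed none of the 9 at the threshold used, although Klf10 lay above WT in every Lyso library and was higher in Lyso than in the relapsed lines. The relapsed lines, once back in culture, had no KLF that differed from WT at that threshold. Levels are CPM, a gene's counts scaled to a common library size with TMM factors, and differences are log2 fold changes from edgeR's quasi-likelihood test on all 12 libraries. To be called changed, a gene needed a p below 0.05 after Benjamini-Hochberg adjustment over the 14924 tested genes and a log2 fold change above 1 in size. All 9 genes passed the filter on low counts.

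In the comparison of Tumor with WT, 5 of the 9 KLFs were called higher and 0 lower, where 8.56% of all tested genes were called higher and 2.2% lower. The median log2 fold change was 1.27 over the KLFs and 0.0014 over all genes. Tumor against the relapsed lines again gave 5 higher and 0 lower (all genes 8.36% and 2.31%, KLF median 1.23), and so did Tumor against Lyso (8.78% and 4.14%, KLF median 1.44). These comparisons share the Tumor libraries. Since the 9 KLFs were chosen with earlier results of these data known, their counts beside the shares of all genes are a description and not a test. Between Lyso and WT, edgeR called 0 of 9 in either direction (all genes 2.43% higher and 0.576% lower), with 4 KLFs at an unadjusted p under 0.05 and 1 called by DESeq2. Between the relapsed lines and WT it also called 0 of 9 (all genes 0.0134% and 0.0268%), with 1 at an unadjusted p under 0.05 and 1 called by DESeq2. Lyso against the relapsed lines gave 1 higher and 0 lower (all genes 3.21% and 1.04%). Summed over the 9 genes, WT libraries held 276.2 to 370.6 CPM, the relapsed lines 224.5 to 449.3, Lyso 287.7 to 297.2 and Tumor 976.2 to 1136.

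Depth differed between libraries and limits the low genes. WT 1 and WT 2 held 1667398 and 2350129 counts on genes and WT 3 16384021, while Tumor held 3102442 to 5049496, Lyso 10895611 to 12675277 and the relapsed lines 12749399 to 16402629. A floor of 3 counts is 1.70 CPM in WT 1, 0.177 in WT 3 and 0.604 to 0.975 in Tumor. Nothing in the labels says that replicates were separate cultures or mice, so p-values measure the spread between these libraries only, which may be technical.

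**Figure D1:**
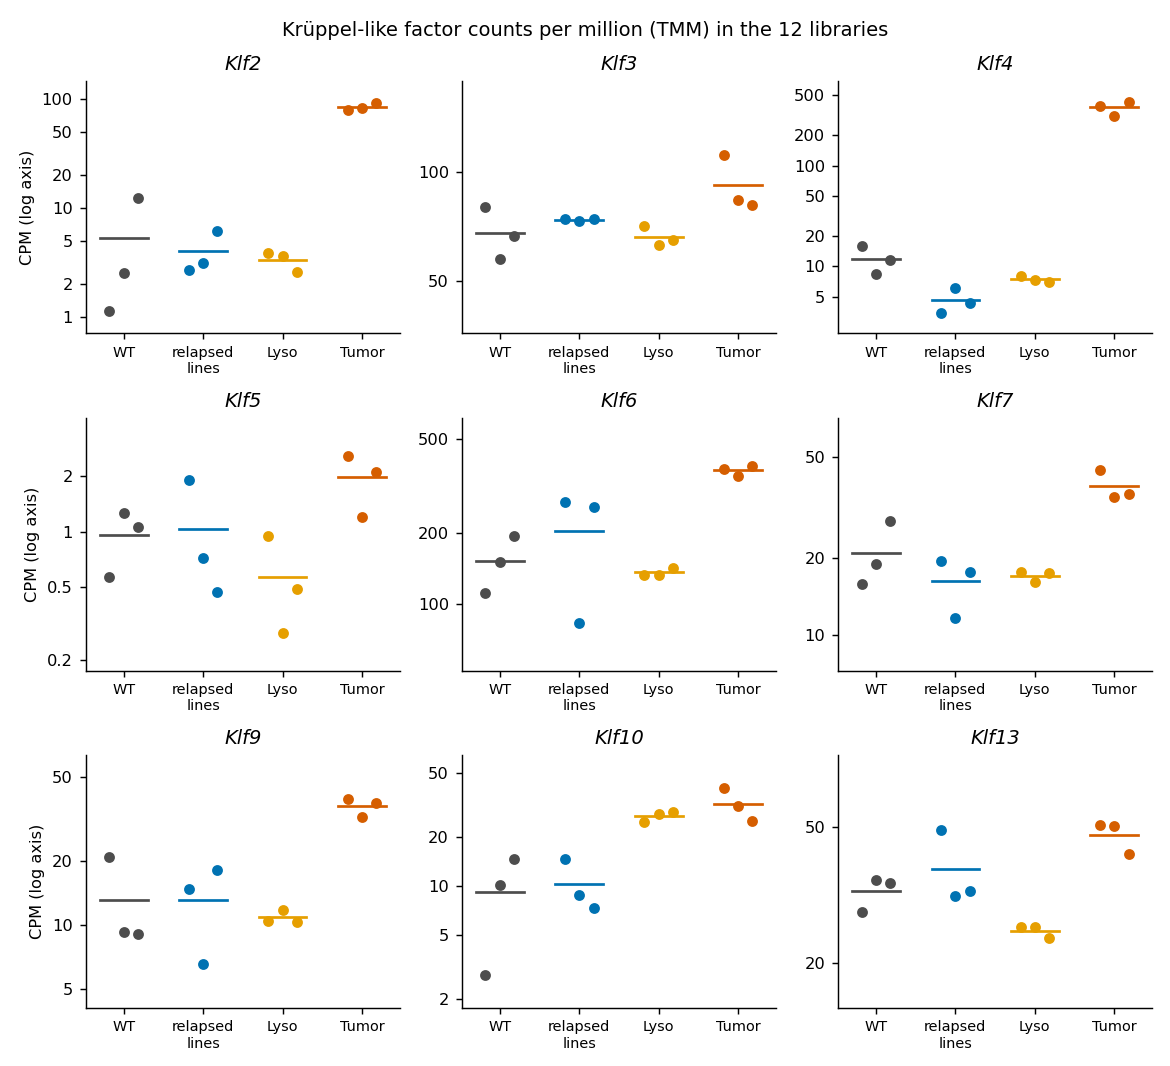
TMM-scaled CPM of the 9 KLF genes, on log axes, in each of the 12 libraries. Points are libraries and horizontal lines are group means. Klf4 and Klf2 in Tumor lie at 311.6 to 432.6 and 79.3 to 90.6 CPM, above every library of the other groups, while Klf10 is raised in Lyso as well as in Tumor.

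The promoters of the KLFs that were higher in Tumor are shown because they are the sequences on which inducing factors act. RefSeq windows of GRCm38.p6, from 250 bases before to 50 after the annotated start, were found for 7 of the 9 genes. Klf5 and Klf10 had none. The 4 below run 5′ to 3′ on the gene's strand from base -250 to base -51, in lower case, with matches to the motifs searched in capitals. Klf2 is shown at chr8:72318812-72319011 (plus strand), Klf4 at chr4:55532526-55532725 (minus), Klf6 at chr13:5861239-5861438 (plus) and Klf9 at chr19:23140976-23141175 (plus).
Klf2: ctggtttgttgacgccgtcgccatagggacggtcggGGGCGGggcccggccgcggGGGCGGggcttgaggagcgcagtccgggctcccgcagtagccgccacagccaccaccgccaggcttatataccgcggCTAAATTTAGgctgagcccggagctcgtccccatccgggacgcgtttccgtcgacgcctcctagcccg
Klf4: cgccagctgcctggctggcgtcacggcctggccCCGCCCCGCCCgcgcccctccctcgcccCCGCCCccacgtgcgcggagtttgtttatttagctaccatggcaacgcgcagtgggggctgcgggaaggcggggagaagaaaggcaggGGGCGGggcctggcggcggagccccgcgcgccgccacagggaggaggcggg
Klf6: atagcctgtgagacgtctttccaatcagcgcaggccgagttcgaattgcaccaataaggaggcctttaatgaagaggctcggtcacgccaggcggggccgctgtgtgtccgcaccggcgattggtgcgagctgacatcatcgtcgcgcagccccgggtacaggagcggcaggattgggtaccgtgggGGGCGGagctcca
Klf9: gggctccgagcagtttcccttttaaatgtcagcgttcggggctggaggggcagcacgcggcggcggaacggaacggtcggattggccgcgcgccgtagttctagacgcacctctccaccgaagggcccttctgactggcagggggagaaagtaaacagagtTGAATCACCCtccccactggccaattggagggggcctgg

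Both strands were searched for the letters CACCC (the KLF and SP box), GGGCGG (the GC box), TGANTCA (AP-1), TGACGTCA (the cyclic AMP response element), TTCNNNGAA (STAT), TATAAA (the TATA box), and for the MEF2, CArG and glucocorticoid receptor consensus sequences. Over the full 300-base windows, the GC box stood in 6 of the 7 KLF windows and in 35.7% of all 32851 windows, and CACCC in 5 of 7 and 57.5%. These letters are GC-rich, and the KLF windows had 58.3% to 76.7% G and C where the median of all windows was 52.7%. Klf2 held a MEF2 match from -118 to -109, a motif found in 3.19% of all windows and in 1 KLF window. Klf4 held 4 GC boxes, the most upstream pair of which overlap by 1 base, and no CACCC. In Klf9, TGAATCA from -89 to -83 matched the AP-1 letters, whose middle base was left free (7.81% of all windows). It ran into a CACCC from -84 to -80, and a STAT match (8.3% of all windows) lay closer to the start, from -33 to -25. No KLF window held the cyclic AMP element (1.79% of all windows), CArG (1.63%), the TATA box (13.6%) or the glucocorticoid receptor consensus (0.00913%). A match here is a description of letters and not a site in use.

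**Figure D2:**
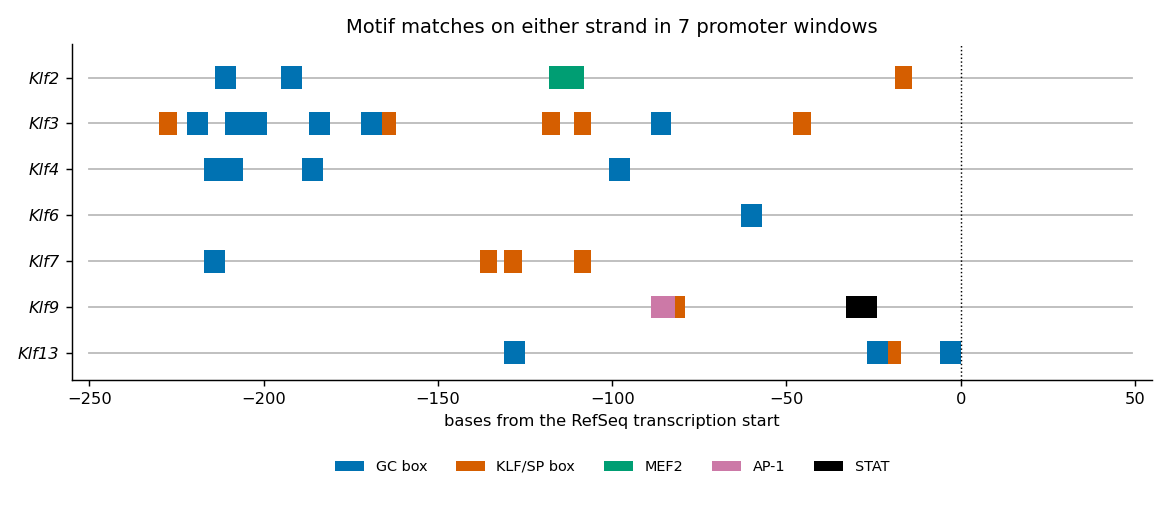
Motif matches on either strand in the 7 promoter windows, by distance in bases from the RefSeq start (dotted line). Bars cover the matched bases, and Klf3 has the most, with 6 GC boxes and 5 KLF/SP boxes. Only Klf2 has a MEF2 match and only Klf9 has AP-1 and STAT matches among these 7.

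Among the activators, Klf4, a factor of epithelial differentiation that is also used to reprogram cells, rose the most. Its gene (ENSMUSG00000003032) lies on chromosome 4 of GRCm38, 55527143 to 55532466, minus strand. It had 15.8, 8.44 and 11.6 CPM in WT 1, 2 and 3, and 394.3, 311.6 and 432.6 CPM in Tumor 1, 3 and 4. The relapsed lines had 3.46 (ITF1), 6.05 (ITM) and 4.28 CPM (Rel), and Lyso had 8.11, 7.27 and 6.96 CPM. So every Tumor library was above every other library, and every relapsed line and every Lyso library was below all 3 WT libraries. Tumor was higher than WT by 5.02 on the log2 scale (SE 0.24, adjusted p = 3.62e-08, edgeR), higher than the relapsed lines by 6.35 (SE 0.24, adjusted p = 2.79e-09) and higher than Lyso by 5.67 (SE 0.23, adjusted p = 6.98e-09). The difference between the relapsed lines and WT was -1.34 (SE 0.24), with an unadjusted p of 9.76e-05 and an adjusted p of 0.0816, so it was not called. DESeq2 (adjusted p = 0.000145) and a fit without the filter on low counts called it, as did edgeR without ITF1 (adjusted p = 0.0472) or without ITM (0.0102). Over the alternatives the adjusted p ran from 1.35e-05 to 0.941, the highest from a fit of the relapsed lines and WT alone. For Lyso against WT it was -0.65 (SE 0.24, adjusted p = 0.152).

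Klf2, known for quiescence of the endothelium and for keeping T cells in circulation, had the next largest rise. The gene (ENSMUSG00000055148) is on chromosome 8, 72319033 to 72321656, plus strand. In Tumor 1, 3 and 4 it had 79.3, 82.1 and 90.6 CPM, and in WT 1, 2 and 3 it had 1.13, 2.53 and 12.2 CPM. The relapsed lines had 2.69, 3.12 and 6.16 CPM (ITF1, ITM and Rel) and Lyso had 3.87, 3.63 and 2.59. WT 1 rests on 2 counts, with an exact (Clopper-Pearson) 95% interval of 0.137 to 4.08 CPM, and WT 3 on 207 counts, with 10.6 to 14.0 CPM. These intervals cover counting error only and do not overlap, so the WT libraries differed by more than their counts allow. Tumor was higher than WT by 3.51 (SE 0.48, adjusted p = 0.000287), than the relapsed lines by 4.39 (SE 0.47, adjusted p = 2.9e-05) and than Lyso by 4.64 (SE 0.49, adjusted p = 2.66e-05). The size of the first of these depended on WT 3, being 5.44 without it and 2.76 with it as the only WT library, and it was called in both. For Lyso against WT the difference was -1.14 (SE 0.50, adjusted p = 0.246). Without WT 3 its sign turned (0.80, adjusted p = 0.564), and against WT 3 alone it was -1.88 (adjusted p = 0.0239).

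Klf6, an activator first described as a protein of core promoter elements, was the most abundant KLF in culture. It lies on chromosome 13, 5861482 to 5870394 (ENSMUSG00000000078, plus strand). WT 1, 2 and 3 had 110.9, 151.2 and 193.1 CPM, Lyso had 133.0, 132.5 and 142.1, and Tumor 1, 3 and 4 had 374.1, 348.8 and 383.4. ITF1 and Rel, with 269.1 and 257.1 CPM, stood above all WT libraries, and ITM, with 83.3 CPM, below them. All Tumor libraries were above the other 9, and the 3 relapsed lines differed more among themselves than WT did. Tumor against WT was 1.27 (SE 0.34, adjusted p = 0.0191), and this call was lost without WT 2 (adjusted p = 0.0566), without Tumor 4 (0.0531) and against WT 3 alone (0.91, adjusted p = 0.242). Against Lyso, Tumor was higher by 1.44 (SE 0.33, adjusted p = 0.00714). Against the relapsed lines the difference of 0.86 (SE 0.33, adjusted p = 0.0871) was not called.

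Klf7, an activator studied in neurons and fat cells, had 15.8, 19.0 and 28.0 CPM in WT, 19.5, 11.6 and 17.7 in ITF1, ITM and Rel, 17.6, 16.2 and 17.5 in Lyso and 44.2, 34.8 and 35.8 in Tumor. Tumor was above every other library here too. It was called against the relapsed lines (1.23, SE 0.22, adjusted p = 0.00168) and Lyso (1.16, SE 0.22, adjusted p = 0.00226). Against WT it passed the adjusted p (0.0293) but not the fold minimum, at 0.80 (SE 0.23). On chromosome 1, 64029447 to 64122282, 39.31% of its exonic bases lie opposite Gm26649, a noncoding gene with 896 counts in all libraries together. Since the strand setting of the counting is not given, reads of these genes may be mixed. Klf5, known for proliferating gut epithelium (chromosome 14, 99298691 to 99315036), was close to undetected. It had 1, 3 and 18 counts in WT, 25, 12 and 7 in ITF1, ITM and Rel, 10, 3 and 6 in Lyso and 8, 6 and 9 in Tumor. Its group means ran from 0.569 CPM in Lyso to 1.98 CPM in Tumor, and no difference was called (Tumor against WT 0.89, SE 0.65, adjusted p = 0.375). The largest, Tumor against Lyso, was 1.73 (SE 0.62, adjusted p = 0.0578) and was called in 4 of 16 alternatives.

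Of the SIN3-binding KLFs, Klf9, a target of glucocorticoid and thyroid hormone receptors, was higher in Tumor than in each of the other groups. It is on chromosome 19, 23141226 to 23168134. Tumor 1, 3 and 4 had 39.3, 32.4 and 37.7 CPM, WT 1, 2 and 3 had 20.9, 9.29 and 9.08, ITF1, ITM and Rel had 14.8, 6.53 and 18.1, and Lyso had 10.5, 11.7 and 10.4. The lowest Tumor library stood above the highest of the others, which was WT 1, at 37 counts. Tumor was higher than WT by 1.59 (SE 0.37, adjusted p = 0.0095), than the relapsed lines by 1.47 (SE 0.34, adjusted p = 0.00817) and than Lyso by 1.74 (SE 0.34, adjusted p = 0.0026). The call against WT was lost without WT 3 (1.31, adjusted p = 0.0648) and kept against WT 3 alone (1.98).

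Klf10, first found as an early gene induced by TGF-beta, was the one KLF that also stood higher in Lyso. It lies on chromosome 15, 38291463 to 38300706. WT 1, 2 and 3 had 2.83, 10.1 and 14.7 CPM, and ITF1, ITM and Rel had 14.7, 8.87 and 7.30. Lyso had 24.8, 27.8 and 28.7, and Tumor 40.3, 31.4 and 25.2. So all Lyso and Tumor libraries lay above all WT libraries and relapsed lines, and Lyso and Tumor overlapped. Lyso against the relapsed lines was 1.40 (SE 0.34, adjusted p = 0.0258), a call lost without any 1 of the Lyso libraries (adjusted p = 0.0798 without Lyso 1, 0.0819 without Lyso 2 and 0.0932 without Lyso 3), without Rel (0.0802) and with all libraries thinned to the depth of WT 1 (0.0778). Lyso against WT was 1.35 (SE 0.37, unadjusted p = 0.0029, adjusted p = 0.0557) and so just missed the threshold. It passed with DESeq2 (adjusted p = 0.00538), without the filter on low counts (6.75e-05), on thinned counts (0.028), in edgeR without WT 3 (0.0325), ITF1 (0.028) or Rel (0.0489), and with WT, Lyso and Tumor alone in the fit (0.028). Against WT 3 alone it was 0.87 (adjusted p = 0.28). Tumor was higher than WT by 1.59 (SE 0.38, adjusted p = 0.01) and than the relapsed lines by 1.65 (SE 0.35, adjusted p = 0.00521), and against WT 3 alone the first was 1.10 and not called (adjusted p = 0.069). Tumor and Lyso were not told apart, at 0.25 (SE 0.34, adjusted p = 0.647).

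Klf13, which takes part in Ccl5 expression in T cells, and the CtBP-binding repressor Klf3 varied least. Klf13 (chromosome 7, 63886351 to 63938915) had 28.3, 35.0 and 34.4 CPM in WT, 49.1, 31.5 and 32.6 in ITF1, ITM and Rel, 25.6, 25.5 and 23.7 in Lyso and 50.7, 50.3 and 41.7 in Tumor. Lyso was thus the lowest group, with no overlap with any other, and ITF1 lay within the range of Tumor. Klf13 passed the adjusted p but not the fold minimum for Tumor against Lyso (0.93, SE 0.17, adjusted p = 0.00181) and for Lyso against the relapsed lines (-0.60, SE 0.17, adjusted p = 0.0491). Klf3 (chromosome 5, 64803388 to 64832901) had 79.8, 57.4 and 66.5 CPM in WT, 72.9 to 73.9 in the relapsed lines, 62.9 to 70.9 in Lyso and 110.8, 83.5 and 80.7 in Tumor. Its differences stayed at or under 0.47 in size in all 6 comparisons, the largest being Tumor against Lyso (SE 0.14, adjusted p = 0.0287).

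**Figure D3:**
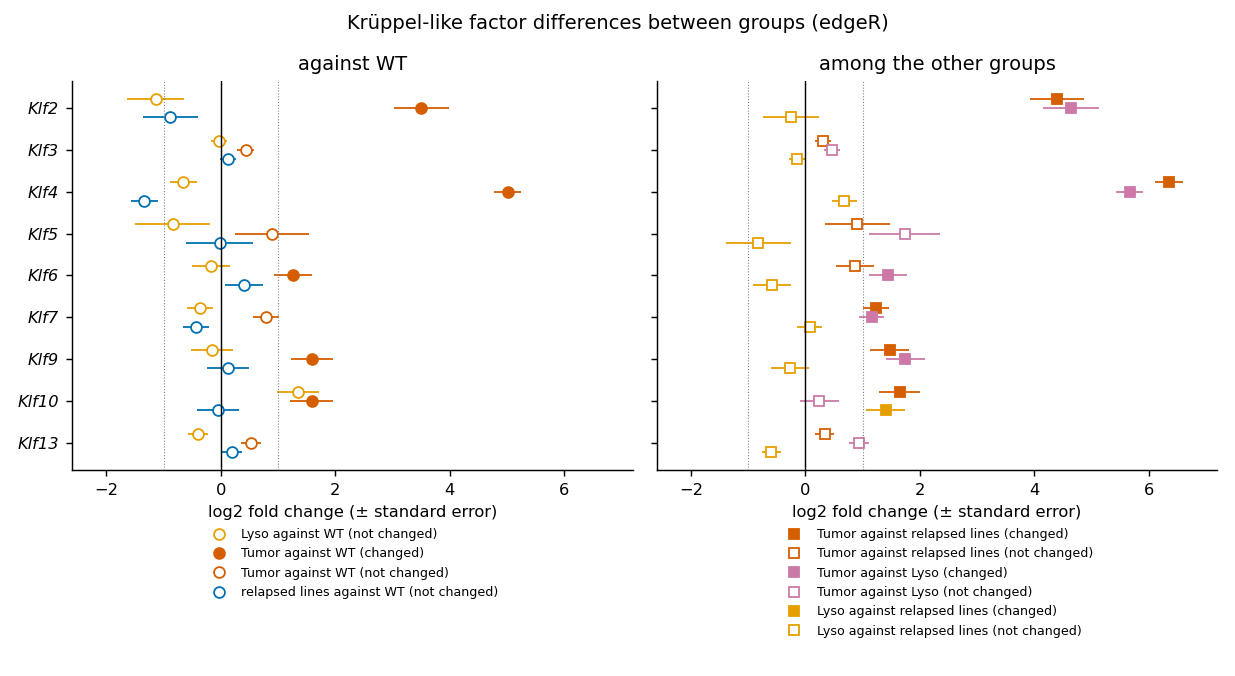
Log2 fold changes of the 9 KLF genes in the 6 comparisons, with standard errors from edgeR. Filled symbols were called changed and open symbols were not, and dotted lines mark the fold minimum of 1 in either direction. The filled symbols are all to the right, 5 in each Tumor comparison and 1, Klf10, in Lyso against the relapsed lines.

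Per kilobase of exon, which allows genes to be set against each other, the order of the KLFs changed in Tumor. In WT, Klf6 was first with 34.6 ± 9.35 CPM per kb (SD, n = 3) and Klf3 next with 6.04 ± 1.002, and both stood apart from the genes below them. Klf13, Klf4, Klf2, Klf9, Klf7 and Klf10 followed between 4.33 and 2.21 CPM per kb, each overlapping its neighbour, and Klf5 was last with 0.185. The relapsed lines also had Klf6 first, with 46.3, and there Klf4 was next to last with 1.51. Lyso had Klf6 first, with 30.9, and Klf10 next with 6.49 ± 0.49, which overlapped Klf3 at 5.88 ± 0.37. In Tumor, Klf4 was first with 124.5 ± 20.3 CPM per kb, Klf6 was next with 84.0 ± 4.08, and Klf2 came after it with 45.5 ± 3.19, and none of these neighbours overlapped. They made up 43.1%, 29.1% and 15.8% of the KLF signal per kb. In WT the shares of Klf4 and Klf2 were 6.61% and 4.82%.

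**Figure D4:**
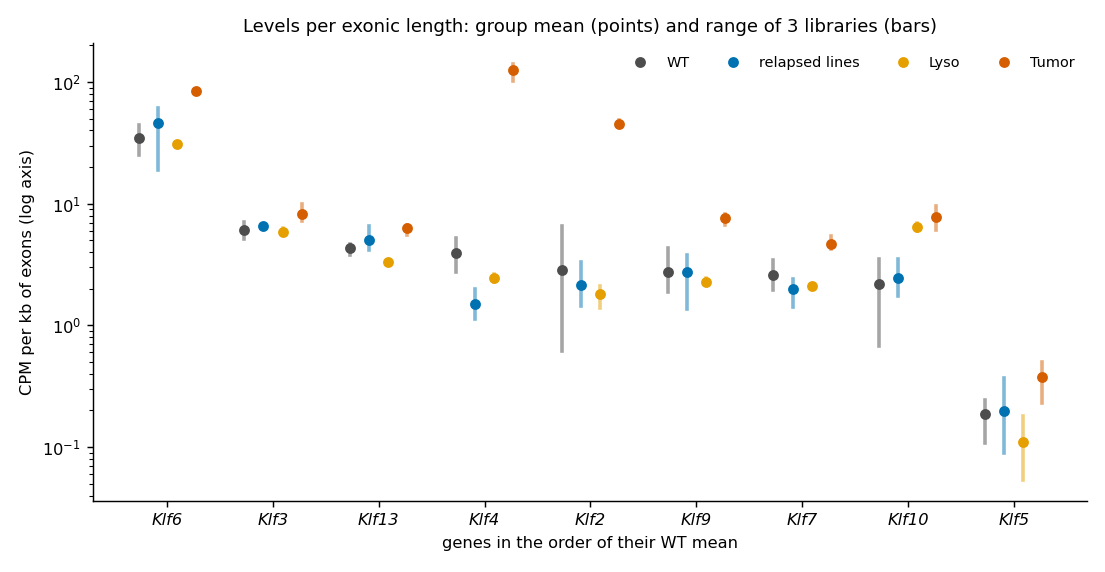
CPM per kilobase of exon for each KLF gene, on a log axis, with genes in the order of their WT mean. Points are group means and bars span the 3 libraries of a group. Klf6 leads in WT, the relapsed lines and Lyso, and Klf4 leads in Tumor with 124.5.

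Genes whose level followed a KLF most closely over the 12 libraries were found by the root mean square of their difference in centred log2 CPM. Nearest to Klf2 were P3h4 (0.51) and Vcam1 (0.56), an adhesion molecule, which had at most 0.236 and 0.649 CPM outside Tumor and 4.47 to 5.53 and 8.003 to 9.75 CPM in it. Nearest to Klf4 were Dapk1 (0.54) and Il1rl2 (0.54), which had no count in the 9 libraries outside Tumor and 9.75 to 12.0045 and 10.5 to 12.4 CPM in Tumor. For such genes the likeness depends on the prior count of 2 used in the log. Klf6 was nearest to Rab11fip5 (0.23) and Efemp2 (0.28), and Klf9 to Zbtb10 (0.29) and Kdm5b (0.31), all of them highest in Tumor. Nearest to Klf10 were Gadd45g (0.34) and Zc3h12a (0.37), which like it were above every WT library and relapsed line in both Lyso and Tumor. Gadd45g had 12.5 to 13.2 CPM in Lyso and 12.3 to 13.3 in Tumor, against 0.566 to 7.55 in WT.

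Of the 8 other KLF genes, 5 could be tested, and Klf11, which binds SIN3 as Klf10 does, was the only one called, in all 3 comparisons with Tumor. It had 43.0 ± 2.72 CPM in Tumor (SD, n = 3) and 6.15 ± 2.06 in WT, a log2 fold change of 2.88 (SE 0.29, adjusted p = 2.78e-05), and 3.71 ± 0.58 in Lyso. Of the 9 SP genes, close relatives that bind the same GC boxes, 5 were tested and 0 were called in any of the 6 comparisons, with a median of 0.35 for Tumor against WT. Sp4 (0.75, adjusted p = 0.00641) and Sp1 (0.35, adjusted p = 0.0321) passed the adjusted p there without reaching the fold minimum. None of 12 genes for KLF cofactors and turnover, among them the CtBP and SIN3 genes, the acetyltransferases Ep300 and Crebbp and the ubiquitin ligases Wwp1 and Fbxw7, was called in any comparison. Their median for Tumor against WT was 0.0034. Crebbp, with 0.83 (adjusted p = 0.00485), had the largest difference among them there.

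Genes upstream of KLFs were described by the same counts. In the MEK5-ERK5-MEF2 pathway, through which flow induces Klf2, 0 of 5 genes were called for Tumor against WT, where Mef2d (0.70, adjusted p = 0.00268) and Mapk7, which encodes ERK5 (-0.45, adjusted p = 0.0452), passed the adjusted p but not the fold minimum. Mef2d did so in Lyso against WT as well (0.71, adjusted p = 0.0085). Mef2c was called higher in Tumor than in Lyso (1.37, adjusted p = 0.00321) and lower in Lyso than in the relapsed lines (-1.10, adjusted p = 0.0286), and the pathway had no other call. Of 6 genes that respond to glucocorticoids, as Klf9 does, 5 were tested, and Dusp1 (3.40), Per1 (2.05) and Sgk1 (2.03) were called higher in Tumor than in WT and in the relapsed lines, and with Tsc22d3 they were higher than in Lyso. Per1 was also higher in Lyso than in the relapsed lines, and the list had no call against WT in Lyso or the relapsed lines. In Lyso against WT, Per1 passed the adjusted p but not the fold minimum (0.91, adjusted p = 0.000821, edgeR). Fkbp5, another gene of this list, had 0.42 for Tumor against WT (adjusted p = 0.0536). Of 10 genes of TGF-beta signalling and its feedback, which induce Klf10 or limit its induction, Tgfbr2 (1.62, adjusted p = 8.26e-05) was called higher and Smad6 (-3.24, adjusted p = 0.00817) lower in Tumor than in WT, and both were called in the same direction against the relapsed lines and Lyso. Smad7 was higher in Lyso than in the relapsed lines (1.05, adjusted p = 0.0112), and none of the 10 was called against WT in Lyso or in the relapsed lines, where Smad7 had 0.78 (adjusted p = 0.0773) and -0.27 (adjusted p = 0.703).

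Of 14 genes known as KLF targets, 12 were tested, and the median for Tumor against WT was -0.59. Thbd, which encodes thrombomodulin and is activated by Klf2 and Klf4, was the only one called, with 12.7 ± 2.68 CPM in Tumor (SD, n = 3) and no count in the other 9 libraries. Endothelial markers, given below, were higher in Tumor too, and which cells the Thbd counts came from was not tested. Against the relapsed lines Thbd was again the only call, and against Lyso it was joined by Cdkn1a, the cell cycle inhibitor p21, which was lower in Tumor (-1.35, adjusted p = 0.0305). Nos3, the endothelial nitric oxide synthase, had 0.859 CPM in Tumor and 1.07 in WT, and S1pr1 had 1.07 and 0.495. These means lie near the floor of 3 counts (1.70 CPM in WT 1, 0.604 to 0.975 in Tumor), so a change in either gene could go unseen. For Lyso against WT and the relapsed lines against WT 0 of 12 were called, and Smad7 and Ccnd1 (1.25, adjusted p = 0.0445) were higher in Lyso than in the relapsed lines.

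Markers of other cells moved with the Tumor group, and they stand beside the KLF results because Klf2 and Klf4 are expressed in stroma and vessels as well. Of 10 fibroblast markers, 9 were called higher in Tumor than in WT, and their summed level was 7889 to 10869 CPM in Tumor and 113.0 to 164.7 in WT, where Lum and Thy1 were at 0. Of 8 endothelial markers, the 6 that could be tested were all called higher. The sums were 48.3 to 53.6 CPM in Tumor and 2.96 to 10.2 in WT, where Kdr and Cldn5 were at 0. Vwf alone had a mean of 24.7 CPM in Tumor and reached 23.6 in the relapsed lines. Between those groups it was not called (1.14, adjusted p = 0.21, edgeR). In Lyso, 6 of these 8 (Cdh5, Kdr, Tie1, Tek, Emcn and Cldn5) were at 0 in all libraries, and the sum, almost all of it Vwf, was 8.11 to 8.91 CPM. Of 10 myeloid markers, 7 could be tested and 5 were called higher in Tumor than in WT. The sums were 46.5 to 72.5 CPM in Tumor and 12.5 to 29.2 in WT, where Itgam, Adgre1, Fcgr1, Tyrobp and C1qa were at 0. They were 12.5 to 46.8 CPM in the relapsed lines, which overlapped Tumor, and 33.4 to 37.1 in Lyso. Cd68 was not higher in Tumor, with a mean of 9.08 CPM there, 9.86 in WT, 14.3 in the relapsed lines and 18.8 in Lyso. The 2 keratinocyte markers that could be tested were not called against WT in any group, and the sum over 8 was 3.22 to 6.18 CPM in Tumor and 3.40 to 5.07 in WT. In bulk RNA, more cells of a type and more RNA per cell cannot be told apart, and the part of admixed cells in the KLF differences was not tested. All 10 melanocyte markers were present in every library, and 0 of them was called against WT in any group. Their sum was 20546 to 22660 CPM in Tumor and 19811 to 28448 in WT. For Tumor against WT, Mitf (0.99, adjusted p = 0.0113, edgeR) and Tyrp1 (-0.66, adjusted p = 0.0251) passed the adjusted p but not the fold minimum. Against the relapsed lines, Mitf was higher in Tumor (1.02, adjusted p = 0.00936) and Mlana (-1.29, adjusted p = 0.00111) and Gpr143 (-1.15, adjusted p = 0.00897) were lower, and against Lyso Gpr143 was lower (-1.63, adjusted p = 0.000837).

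In Lyso, T cell markers stood out. Gzmb, Cd8b1 and Cd8a were called higher than in WT, where 10 of the 11 markers were at 0 in all libraries, and the sum was 15.5 to 17.0 CPM in Lyso and 1.27 to 6.79 in WT. Of the myeloid list Ptprc, which all leukocytes express, was called higher in Lyso. The fibroblast list gave Thy1 higher and Postn and Col1a1 lower. Klf2, an abundant message of resting T cells, had 2.59 to 3.87 CPM in Lyso, within the range of WT. By the study's methods the granules came from activated T cells, whose Klf2 level is not known here. The part of T cell RNA in the Klf2 and Klf10 values was not tested.

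Immediate early genes, which also rise when cells are dissociated from tissue, were mostly higher in Tumor, where several KLFs were too. For Lyso against WT, some of them were called. Of the 9 KLFs 0 were called there, with Klf10 just missing the threshold (1.35, adjusted p = 0.0557, edgeR). Of a list of 26, which shares no gene with the KLFs, 23 were called higher in Tumor than in WT and 0 lower, with a median of 2.44. Fosb was higher by 8.04, Dusp1 by 3.40, Maff by 3.29 and Socs3 by 3.62. The list summed to 5895 to 7260 CPM in Tumor, 771.0 to 955.2 in WT, 566.5 to 840.2 in the relapsed lines and 1032 to 1127 in Lyso. Against the relapsed lines 25 of 26 were higher in Tumor, and against Lyso 23. In Lyso 6 were higher than in WT (Socs3, Maff, Zfp36, Junb, Egr1 and Egr2) and 3 lower (Cyr61, Hspa1a and Rhob), and between the relapsed lines and WT 0 were called. Lyso against the relapsed lines gave 10 higher, among them Socs3, Maff, Zfp36 and Egr2, and 2 lower. The share of sorting and dissociation in the Tumor values was not tested.

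**Figure D5:**
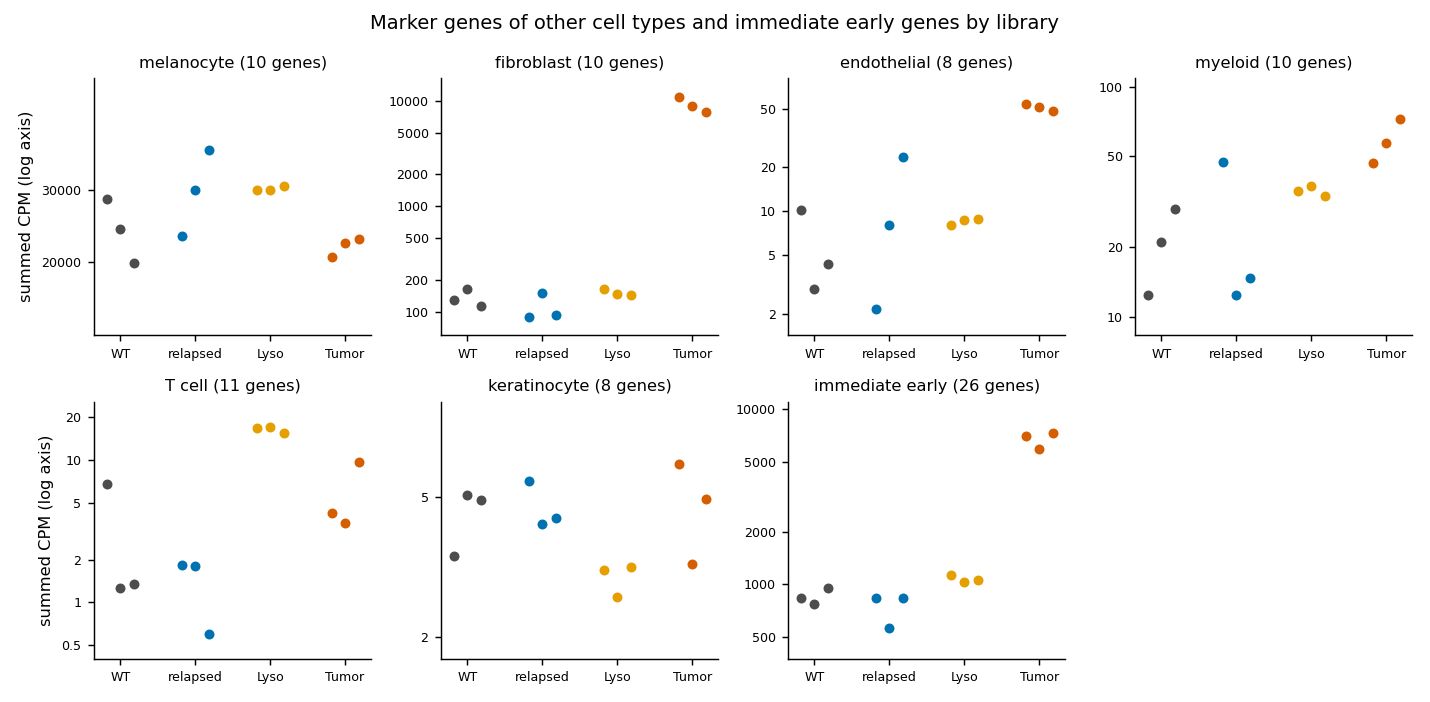
Summed CPM, on log axes, of 6 lists of cell type markers and of 26 immediate early genes in each of the 12 libraries. In Tumor the fibroblast sum is 7889 to 10869 CPM, the endothelial sum 48.3 to 53.6 and the immediate early sum 5895 to 7260. The melanocyte sum in Tumor lies within the WT range.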

How the data were processed

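RNA from B16F10 cells was sequenced as mRNA libraries. Per the labels and the submitters' processing notes, the authors trimmed reads with fastp 0.19.6, aligned them with STAR 2.7.1a to GRCm38 (mm10) and used DESeq2 1.24.0. The annotation release and the strand setting of the counting are not given in the sources used here. The deposited values are raw counts per Ensembl gene, not normalized, for 54232 genes, of which 25258 had no count. Reads on genes were 36.2% to 39.4% of those in the table and reads on no feature 43.5% to 44.8%, and the summary rows that hold the latter were left out of library sizes and tests. Reads shared by overlapping genes may be missing from either.

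The counts were fitted for all 12 libraries in 1 model with edgeR 4.0.16 (R 4.3.3, limma 3.58.1; TMM scaling, filterByExpr, quasi-likelihood test), and 6 pairs of groups were compared. A standard error was the size of the log2 fold change divided by the root of its F statistic. The fit was tested on simulated counts with changes planted in Tumor only, so no planted change was tested for the comparisons without Tumor. Exonic lengths and positions are from GENCODE M21, which held 54165 of the identifiers. DESeq2 1.42.0, other scalings and filters, thinning to 1667398 counts, and leaving out each library were alternatives. The 9 members and all gene lists were chosen with earlier results of these data known. All 9 were named, with up to 4 genes of smallest p from each list among those changed and the 2 genes nearest to each KLF changed against WT. Sp1, Sp4, Crebbp, Mapk7, Mef2d, Fkbp5, Nos3, S1pr1 and Tyrp1 and the genes named as changed beyond 4 were named after their values were seen. Dusp1 stands in the glucocorticoid and immediate early lists, Smad7 in the TGF-beta and target lists, and Klf8 in the lists of other KLF genes and targets. A further gene of the TGF-beta list is not reported here. Numbers shared by WT, Lyso and Tumor libraries were not taken to pair them in the main fit. The correlation of their deviations from group means was -0.0081 to 0.065. Counting noise in shallow libraries such as WT 1 and WT 2 weakens such a correlation, so it cannot exclude a pairing. Replicates of a group differed by more than sampling noise, and least so Lyso 2 and Lyso 3 (chi-square per degree of freedom 1.59). The next lowest was 3.89, for Tumor 3 and Tumor 4, and all were kept apart.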

Additional observations from a re-analysis of the deposited data

How the results depend on the processing

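Of 1133 alternative log2 fold changes of the 9 KLFs, 1068 kept their direction and side of the threshold, 26 passed it newly, 10 lost it and 29 changed sign, none of which had been called. Klf4 in Tumor against WT was called in 22 of 22 alternatives (4.80 to 5.15) and Klf2 in 21 of 21 (2.76 to 5.44). For Lyso against WT the count of called KLFs, 0, became 1 with DESeq2, on thinned counts, with WT, Lyso and Tumor alone in the fit (an alternative chosen after seeing the data) and with WT 3 as the only WT library, 2 with no filter on low counts (Klf2 lower, Klf10 higher), and 0 to 1 with 1 library left out. For Tumor against WT it was 5, and 3 with at least 10 counts in every library, which left Klf2, Klf5 and Klf10 untested, 3 with WT 3 as the only WT library, and 4 to 5 with 1 library left out. For the relapsed lines against WT it was 0, and 1 with DESeq2 and with no filter (Klf4), and 0 to 1 with 1 library left out. For Lyso against the relapsed lines it was 1, with 2 by the adjusted p alone, 0 on thinned counts and 0 to 1 with 1 library left out. With 1 library left out, Tumor gave 5 to 7 against the relapsed lines and 5 to 6 against Lyso. WT 3 as the only WT library is assumed to vary like the other groups. Except for fewer genes tested, the cause of these shifts was not tested.

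With the replicate number as a block in WT, Lyso and Tumor (replicate block), 0 KLFs were called for Lyso against WT, 5 for Tumor against WT and 6 for Tumor against Lyso, where Klf13 joined (1.06, adjusted p = 0.00286, edgeR). The same 9 libraries without the block gave 1, 5 and 5. The labels link these libraries by the number only.

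Sign changes with 1 library left out were, for Lyso against WT, Klf2 (-1.44 to 0.80), Klf3 (-0.13 to 0.085), Klf6 (-0.35 to 0.056) and Klf9 (-0.43 to 0.25, and 0.25 with WT 3 as the only WT library). For the relapsed lines against WT they were Klf2 (-1.35 to 1.04, thinned 0.16), Klf5 (-0.77 to 0.33, DESeq2 0.0090, no filter 0.0078), Klf9 (-0.17 to 0.50, thinned -0.38), Klf10 (-0.42 to 0.58, DESeq2 0.021, compared groups only 0.030, thinned 0.42) and Klf13 (-0.038 to 0.31). For Lyso against the relapsed lines they were Klf2 (-0.46 to 0.20), Klf7 (-0.12 to 0.22) and Klf9 (-0.60 to 0.032, thinned 0.18). Depth limits Klf5, Klf2 and Klf10 most, since WT 1 and WT 2 hold 1 to 24 counts of each.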
